A study of Homo sapiens with 8 samples.

Results

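The transcripts described here are 37 genes of the TGF-beta and BMP pathways, followed in human esophageal epithelial cells with and without forced expression of the microRNA miR-155-5p. They were chosen by name from the 58735 genes of the raw count table and fall into 16 ligands, binding proteins and activators, 9 receptors, 6 SMADs and nuclear corepressors, and 6 target genes. The cells were EPC2-hTERT, a human esophageal line kept dividing by telomerase. Both groups came from that line and were raised as a layered culture with its upper face in air, after 2 days on inserts with 0.4 μm pores and 5 days in 1.8 mM calcium. The time spent at the air interface is not given in the sources used here. The group named miR-155OE (4 libraries) carried stable lentiviral miR-155-5p, and the group named CTRL (4 libraries) has the genotype Control in the labels, with no vector named. No label says that either group came from more than 1 derivation of this line. An effect of the derivation therefore cannot be told apart from one of the microRNA. Libraries carry the numbers 1 to 4 within each group, and no label says that they came from separate cultures. The p-values thus measure the spread between these libraries, which may be technical.

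Depth was 34.1 to 52.7 M counted reads per CTRL library and 33.4 to 40.6 M per miR-155OE library (M, mega). The miR-155 host gene MIR155HG and the MIR155 precursor had 0 reads in all 8 libraries, so these data hold no check of the overexpression itself. All 10 squamous markers were expressed. Of 11 fibroblast markers, 10 were under 1 CPM (reads of a gene scaled to a common library total) in all 8 libraries and 5 had 0 reads. COL1A1 was the exception, with a mean ± SD of 116 ± 25.0 CPM for CTRL against 156 ± 50.6 CPM for miR-155OE (n = 4 each). In the edgeR fits described below, COL1A1 had no call on group alone (adjusted p = 0.322). With the replicate numbers as a block it rose by 0.40 on the log2 scale (SE 0.11, adjusted p = 0.0451). All 5 immune markers and 3 of 4 endothelial markers were also under 1 CPM throughout. The summed level of 6 suprabasal esophageal markers was 2681 to 3268 CPM in CTRL and 1594 to 2288 CPM in miR-155OE, with no overlap, while the sum of 8 basal markers overlapped, at 19770 to 25150 CPM against 17950 to 24230 CPM. The suprabasal markers did not move alike. In the same edgeR fits, KRT78 was lower on group alone and 5 of 6 were lower with the replicate numbers as a block. KRT4 ranged from 60.4 to 126 CPM over CTRL and from 3.18 to 47.9 CPM over miR-155OE, and SPRR3 from 832 to 1345 CPM and from 76.5 to 818 CPM, with miR-155OE library 2 the highest of its group for both. IVL, the exception, had means of 1118 ± 160 and 1157 ± 186 CPM (SD, n = 4 each). Fewer cells of a layer and less RNA per cell cannot be told apart in such bulk samples. The part of this shift in the results on the pathway was not tested.

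TGF-beta is secreted bound to a latency peptide and to latent TGF-beta binding proteins, which hold it in the matrix until integrins or thrombospondin-1 release it. TGF-beta and activin then signal through type I and type II receptor kinases to SMAD2 and SMAD3, and BMPs to SMAD1, SMAD5 and SMAD9, with SMAD4 as the shared partner and SMAD6 and SMAD7 as inhibitors. In stratified epithelia TGF-beta is known for restraining keratinocyte division, and in the esophagus for its links to tissue remodelling and barrier loss. BMP signalling is known there for its links to squamous differentiation. MicroRNAs such as miR-155-5p can lower transcripts that carry a match to the seed, the bases near the microRNA's 5′ end, usually in the 3′ UTR.

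Because the manipulated factor was a microRNA, its sequence is shown first, with the seed sites of those members that later passed a test. The mature sequence is from RefSeq on GRCh38.p14, with the seed (bases 2 to 8) in capitals, and it lies on the plus strand at chr21:25573983-25574006. The sites are from each gene's longest 3′ UTR as annotated in GENCODE release 29 on GRCh38, with the matching bases in capitals.
hsa-miR-155-5p: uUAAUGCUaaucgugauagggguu
TGFB2: tatgaccgagaaagtctGCATTAA
THBS1: ttgcaatgttgagccaAGCATTAc
TGFBR1: actaaagaaatgaagtgGCATTAA
ACVR1: tcctaaaagagatctggGCATTAA
CDKN2B: taatctgtaccaggtatGCATTAA

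The TGFB2 site lies in the 3′ UTR part of exon 7 of 7 at chr1:218442010-218442033, plus strand. The THBS1 site lies in exon 22 of 22 at chr15:39597944-39597967, plus strand, and is the only one of the 5 that pairs with all of bases 2 to 8. In TGFBR1 the match is in exon 9 of 9 at chr9:99150155-99150178, plus strand. ACVR1 has it in exon 11 of 11 at chr2:157737221-157737244 and CDKN2B in exon 2 of 2 at chr9:22004123-22004146, both on the minus strand. These 4 sites pair with bases 2 to 7 and are followed by an A. A further 8 members hold a site of the same 2 kinds, ITGAV, ITGB6, TGFBR2, BMPR1A, ACVR1B, ACVR2A, SMAD3 and SKIL, and no member holds a match to bases 2 to 8 followed by A. In all, 13 of 37 members (35.1%) had a site, against 17.6% of the 12512 tested genes with an annotated 3′ UTR. The median UTR length was 2038 bases over the members and 1380 bases over all of those genes, so the longer UTRs of the members move with this share. Counting every annotated UTR added TGFBI, for 14 members.

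Levels in CTRL are given per kilobase of the deposited gene length (CPM per kb, mean ± SD, n = 4), which allows genes to be compared. The 4 highest members were targets. ID1, which encodes an inhibitor of basic helix-loop-helix factors and is a classical BMP target, was at 539 ± 9.24 CPM per kb and led all 37 members. TGFBI, which encodes a secreted adhesion protein induced by TGF-beta, followed at 119 ± 30.2 CPM per kb. CDKN2B, the cell cycle inhibitor p15, and ID3 stood at 49.3 ± 5.40 and 44.7 ± 20.0 CPM per kb and did not differ beyond their spread. PMEPA1 stood at 24.3 ± 1.76 CPM per kb, below TGFB1 and ITGAV, and the lowest target was ID2 at 14.6 ± 3.57 CPM per kb. Among ligands and activators TGFB1 led at 31.2 ± 4.59 CPM per kb, beside ITGAV at 30.2 ± 2.52 CPM per kb, which encodes the alpha subunit of integrins that activate latent TGF-beta. TGFB2 stood at 0.833 ± 0.155 CPM per kb and TGFB3 at 0.0772 ± 0.0190 CPM per kb, so TGFB1 was the most abundant of the 3 TGF-beta ligand transcripts. BMP4 was the lowest member, with 2, 2, 6 and 0 reads in CTRL libraries 1 to 4 and 0, 0, 0 and 1 read in miR-155OE, and it was not tested. Among the receptors ACVR1, a BMP type I receptor, was highest at 12.0 ± 0.780 CPM per kb and TGFBR3, the co-receptor betaglycan, lowest at 0.0900 ± 0.0381 CPM per kb. In the SMAD group the corepressor SKIL was at 17.0 ± 2.01 and the corepressor TGIF1 at 12.7 ± 2.56 CPM per kb, and the inhibitory SMAD6 was lowest at 0.281 ± 0.185 CPM per kb. With the longest annotated transcript as the length the order of the corepressors turned, to 34.5 CPM per kb for TGIF1 and 18.5 CPM per kb for SKIL, and TGIF1 moved from rank 12 to rank 7. ID1 and BMP4 were still first and last.

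**Figure D1:**
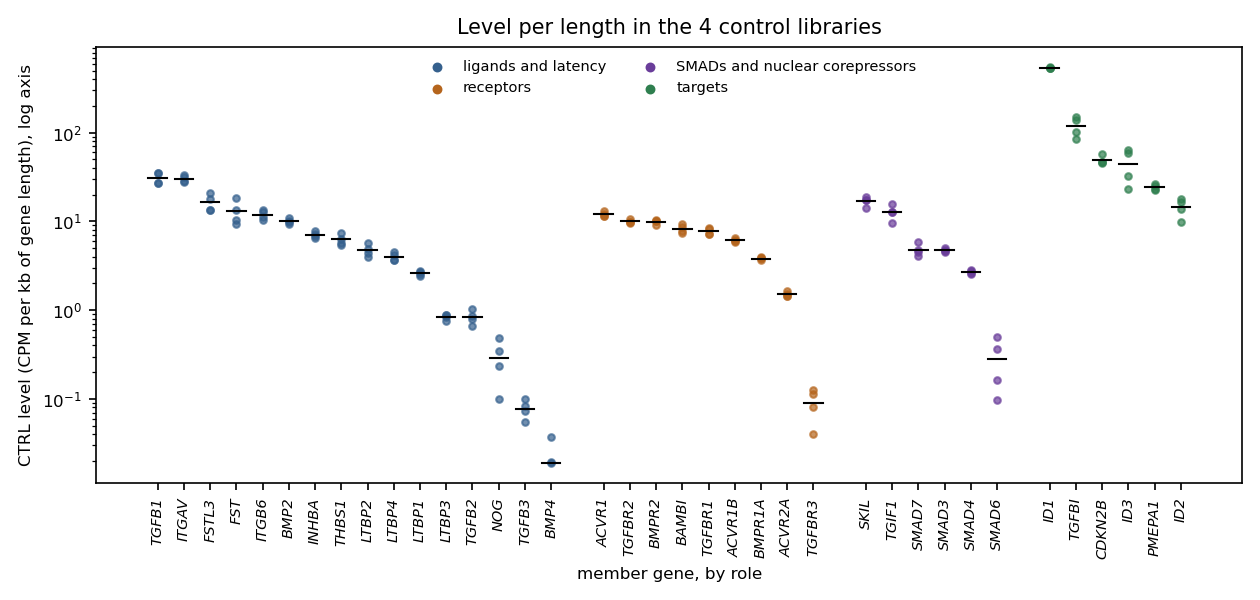
Level of each member in the 4 CTRL libraries, in CPM per kb of deposited gene length on a log axis, with members ordered by role and level; points are libraries, bars are means, and the BMP4 library with 0 reads is not drawn. ID1 and TGFBI stand above all other members, and LTBP3, TGFB2, NOG, SMAD6, TGFBR3, TGFB3 and BMP4 lie below 1 CPM per kb.

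The central question was how these genes differed between miR-155OE and CTRL. A few ligands, activators and binding proteins were lower in miR-155OE, above all TGFB2, THBS1 and FSTL3. INHBA, the receptor TGFBR1 and the targets TGFBI and PMEPA1 were lower by less. LTBP4, BMP2, ACVR1, BAMBI, ID2 and CDKN2B were higher. How many of these passed depended on the use of the replicate numbers. In the edgeR fit on group alone, 0 of 36 tested members fell at an adjusted p of 0.05 or less, against 1.05% of all 15135 tested genes, and 1 (LTBP4) rose, against 2.17%. Both counts are near the background. At an unadjusted p under 0.05 there were 6 members lower and 6 higher, 33.3% of the members against 19.3% of all genes. DESeq2 on group alone called 3 members lower (TGFB2, FSTL3 and TGFBR1, against 2.95% of all genes) and 5 higher (LTBP4, BMP2, BAMBI, ID2 and CDKN2B, against 5.13%), and limma-voom called 0 lower and 1 higher.

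Libraries with the same number deviated from their group means together, so the numbers were taken to pair them. With the number as a block in the edgeR fit, 7 of 36 members (19.4%) fell, against 5.17% of all genes, and 6 (16.7%) rose, against 7.43%. No test of the list as a whole was made. In simulated data the blocked fit made 20 false calls among 163, and the fit on group alone 0 among 82. The adjusted p-values of the blocked fit may therefore be too low. The fit on group alone recovered 28.3% of the simulated 1.5-fold changes and 57.4% of the 2-fold ones. The blocked fit recovered 66.7% and 81.9%. A missing call on group alone is therefore no evidence that a gene did not differ. The 23 other tested members passed in neither direction with the block. The median log2 fold change (miR-155OE over CTRL) in the fit on group alone was -0.07 over the 36 members and -0.01 over all genes, and 21 members were on the lower side and 15 on the higher side. All 4 pairs were lower for 9 members (25%, against 16.9% of all genes) and higher for 8 (22.2%, against 18.8%). The miR-155OE libraries lay wholly below CTRL for TGFB2 and FSTL3 (5.56% of members, against 5.25% of all genes) and wholly above for LTBP4 (2.78%, against 6.16%), shares near or under the background. The authors' deposited table has TGFB2 and FSTL3 among its lower genes (1.70% of its rows) and BMP2, LTBP4, BAMBI and ID2 among its higher ones (3.03%). These shares are over its 25529 rows, a wider set than the 15135 genes tested here.

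**Figure D2:**
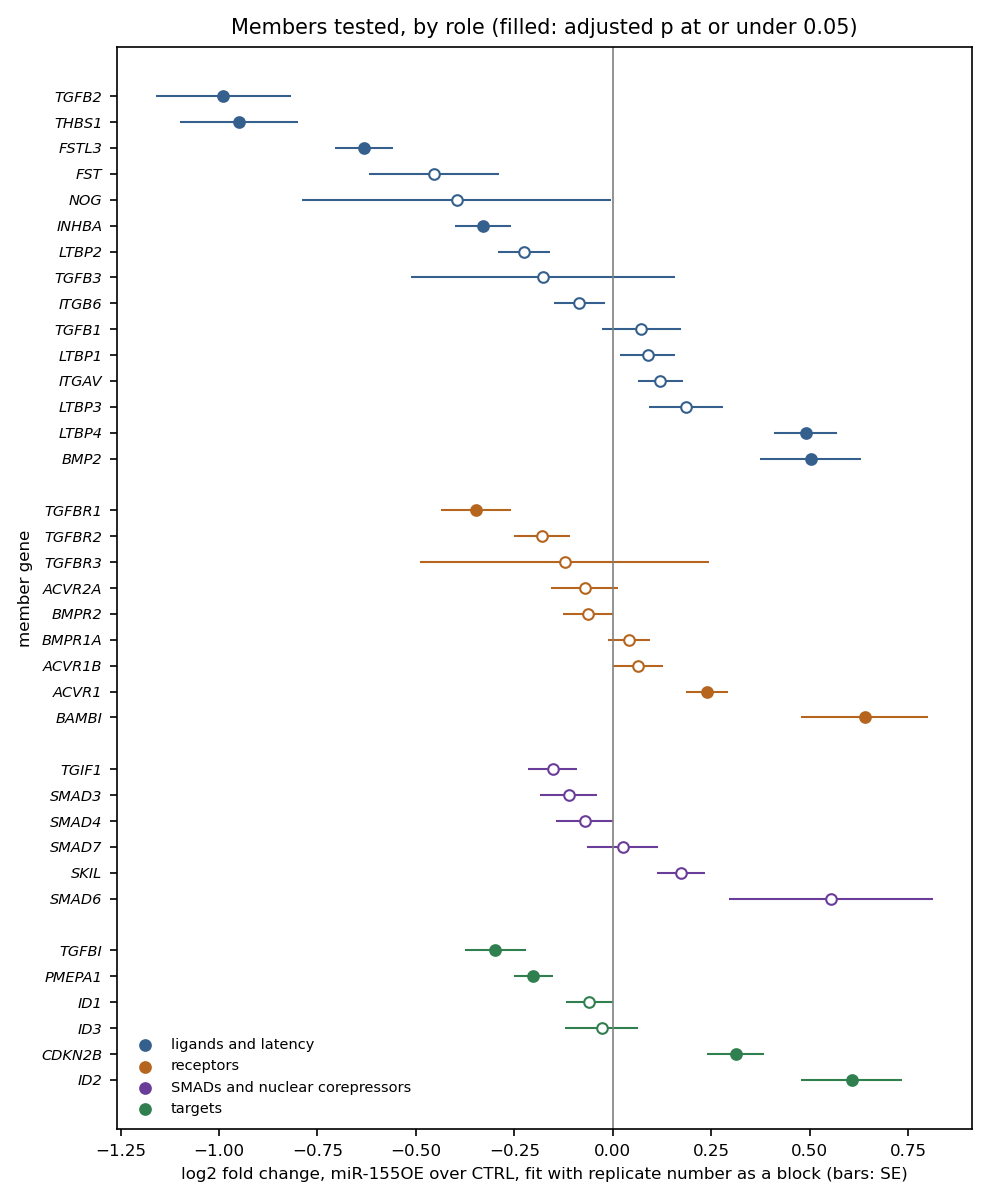
Log2 fold change of the 36 tested members, miR-155OE over CTRL, from the edgeR fit blocked on the replicate number; bars are SE, and filled points have an adjusted p of 0.05 or less. The 7 lower calls reach from TGFB2 at -0.99 to PMEPA1 at -0.20, the 6 higher calls from ACVR1 at 0.24 to BAMBI at 0.64, and none is in the SMAD group.

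Among ligands and activators, the largest differences were in TGFB2 and THBS1, each about as large in both fits. TGFB2, a TGF-beta ligand (ENSG00000092969, chr1:218346235-218444619), was at 4.05, 4.37, 5.33 and 3.41 CPM in CTRL libraries 1 to 4. In miR-155OE it was at 1.62, 3.22, 2.51 and 1.51 CPM, all below every CTRL library. The log2 fold change on group alone was -0.95 (SE 0.25, adjusted p = 0.0636), and with the block TGFB2 fell by 0.99 (SE 0.17, adjusted p = 0.00759). THBS1, which encodes the matrix protein thrombospondin-1 (ENSG00000137801, chr15:39581079-39599466), was at 58.5, 68.3, 52.1 and 50.1 CPM in CTRL. It stood at 29.9, 56.2, 20.6 and 21.3 CPM in miR-155OE, where library 2 lay within the CTRL range and the other libraries far below it. Its log2 fold change was -0.84 (SE 0.28, adjusted p = 0.133) on group alone, and with the block it fell by 0.95 (SE 0.15, adjusted p = 0.00508). Both genes carry one of the seed sites shown above. Both blocked calls were kept when each number was left out in turn, with adjusted p up to 0.0481 for TGFB2 and 0.0351 for THBS1.

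The activin arm also had lower members. FSTL3, a secreted glycoprotein that binds activin (ENSG00000070404, chr19:676365-683399), was at 64.2, 54.5, 41.2 and 41.4 CPM in CTRL and at 35.9, 39.8, 28.8 and 25.1 CPM in miR-155OE. The groups did not overlap, and libraries 1 and 2 were higher than 3 and 4 in both. FSTL3 had a log2 fold change of -0.63 (SE 0.17, adjusted p = 0.0737) on group alone and fell by 0.63 (SE 0.07, adjusted p = 0.00186) with the block, the lowest adjusted p of the members. That call was kept without each number, at adjusted p up to 0.0163. INHBA encodes the subunit of activin A (ENSG00000122641, chr7:41667168-41705834). It was at 59.3, 54.5, 56.7 and 65.1 CPM in CTRL and at 44.3, 49.9, 39.6 and 54.7 CPM in miR-155OE, with library 4 of miR-155OE just inside the CTRL range. The log2 fold change was -0.32 (SE 0.10, adjusted p = 0.113) on group alone, and INHBA fell by 0.33 (SE 0.07, adjusted p = 0.0175) with the block. Leaving out number 1 or number 4 ended the INHBA call, with an adjusted p of up to 0.112.

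The higher members of this group were LTBP4 and BMP2. LTBP4, which binds latent TGF-beta to elastic fibres (ENSG00000090006, chr19:40592883-40629818), was at 30.1, 33.9, 30.1 and 36.3 CPM in CTRL and at 46.9, 46.2, 47.7 and 42.0 CPM in miR-155OE. Every miR-155OE library lay above every CTRL library. LTBP4 rose by 0.49 on the log2 scale in both fits, with SE 0.08 and adjusted p = 0.0135 on group alone and SE 0.08 and adjusted p = 0.00609 with the block. Without miR-155OE library 1 the call on group alone ended at an adjusted p of 0.0513, and the blocked call was kept without each number. BMP2, a BMP ligand (ENSG00000125845, chr20:6767664-6780280), was at 39.0, 35.5, 36.1 and 33.6 CPM in CTRL and at 55.6, 36.4, 73.1 and 44.9 CPM in miR-155OE. Library 2 of miR-155OE lay within the CTRL range and library 3 was the highest of all. Its log2 fold change was 0.54 (SE 0.18, adjusted p = 0.122) on group alone, and with the block BMP2 rose by 0.50 (SE 0.13, adjusted p = 0.0339). That call ended without number 1 or number 4, at an adjusted p of up to 0.130.

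The other 9 tested members of this group had no call in either fit. TGFB1, the most abundant ligand, had a log2 fold change of 0.08 on group alone, lower in 2 pairs and higher in 2. ITGAV (0.12) and ITGB6 (-0.09), whose products pair as an integrin that activates latent TGF-beta, also lay near 0. LTBP2 was lower in all 4 pairs, at -0.22 on group alone and an adjusted p of 0.0572 with the block. FST, which encodes the activin antagonist follistatin, was at 27.7, 31.1, 40.0 and 55.2 CPM in CTRL and at 11.4, 30.4, 35.8 and 40.5 CPM in miR-155OE. The spread within each FST group was larger than the difference between them, and its log2 fold change was -0.38 (SE 0.33) on group alone. FST was nevertheless lower in all 4 pairs, at -0.45 (SE 0.17, adjusted p = 0.1075) with the block. NOG, encoding the BMP antagonist noggin, was below 1 CPM in all 8 libraries.

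**Figure D3:**
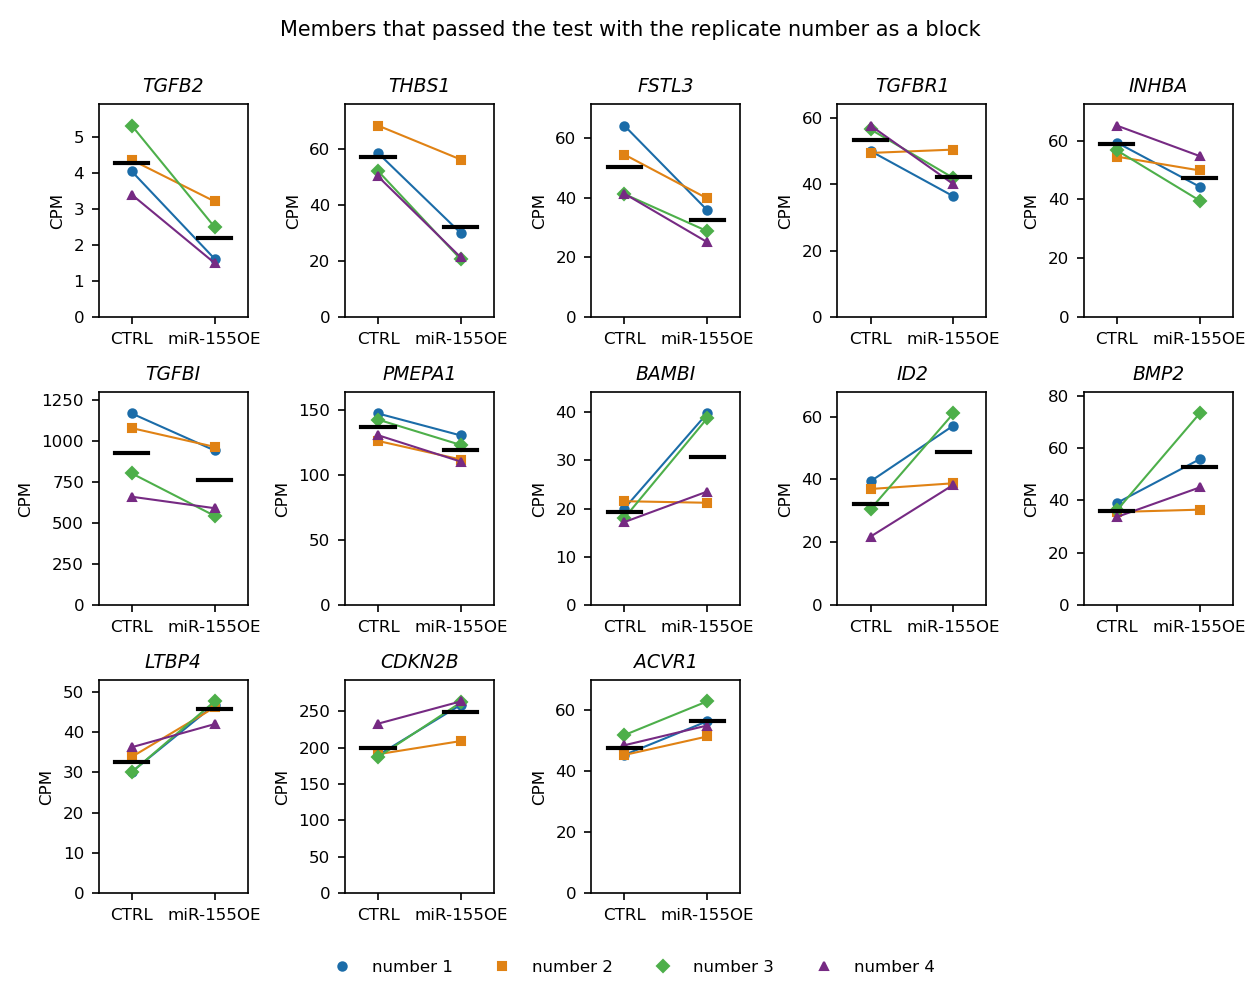
CPM of the 13 members that passed with the replicate number as a block, 1 panel per gene; points are libraries joined by replicate number, and black bars are group means. Only TGFB2, FSTL3 and LTBP4 have groups that do not overlap, and the lines of number 2 are nearly flat for TGFBR1, BAMBI, ID2 and BMP2.

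Of the 9 receptors, 1 fell and 2 rose with the block, and 0 passed on group alone. Over all tested genes, 5.17% fell and 7.43% rose with the block, and 3.22% passed on group alone. No test of a role group was made. TGFBR1, the TGF-beta type I receptor (ENSG00000106799, chr9:99104038-99154192), was at 50.0, 49.4, 56.5 and 57.6 CPM in CTRL and at 36.4, 50.4, 41.9 and 40.0 CPM in miR-155OE. Library 2 of miR-155OE lay within the CTRL range and was higher than its CTRL partner. TGFBR1 had a log2 fold change of -0.34 (SE 0.10, adjusted p = 0.0954) on group alone and fell by 0.35 (SE 0.09, adjusted p = 0.0345) with the block, being lower in 3 of 4 pairs. Its type II partner TGFBR2, which also holds a seed site, was lower in the same number of pairs at -0.17 on group alone and an adjusted p of 0.134 with the block.

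On the BMP side, ACVR1 (ENSG00000115170, chr2:157736444-157875862) was at 45.3, 45.3, 51.8 and 48.5 CPM in CTRL and at 56.4, 51.4, 62.9 and 55.0 CPM in miR-155OE. It was higher in all 4 pairs, although library 2 of miR-155OE lay just under the highest CTRL library. The log2 fold change was 0.24 (SE 0.08, adjusted p = 0.122) on group alone, and ACVR1 rose by 0.24 (SE 0.05, adjusted p = 0.0208) with the block. BAMBI encodes a receptor-like protein without a kinase domain that dampens TGF-beta signalling (ENSG00000095739, chr10:28677342-28682939). It was at 20.0, 21.5, 18.0 and 17.2 CPM in CTRL and at 39.8, 21.2, 38.7 and 23.5 CPM in miR-155OE. Libraries 1 and 3 of miR-155OE were close to double their partners, library 4 was moderately higher and library 2 was within the CTRL range. BAMBI had a log2 fold change of 0.68 (SE 0.20, adjusted p = 0.0848) on group alone and rose by 0.64 (SE 0.16, adjusted p = 0.0327) with the block, and DESeq2 with the same block gave an adjusted p of 0.0832. Leaving out number 1 or number 4 ended the 3 receptor calls, and leaving out number 3 ended those of BAMBI and TGFBR1, with adjusted p up to 0.170. The other receptors BMPR1A, BMPR2, ACVR1B and ACVR2A differed by at most 0.07 on the log2 scale in either direction on group alone.

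The SMADs and corepressors had no call in either fit. SMAD3, the TGF-beta receptor substrate, was at 42.2, 46.1, 42.8 and 40.7 CPM in CTRL and at 38.4, 49.7, 34.4 and 37.8 CPM in miR-155OE, with overlapping groups and a log2 fold change of -0.10 on group alone. SMAD4 stood at -0.07, SMAD7 at 0.05, TGIF1 at -0.15 and SKIL at 0.17. SKIL was higher in all 4 pairs, with an adjusted p of 0.0989 in the blocked fit. TGIF1 was lower in all 4 pairs, with an adjusted p of 0.1435 in that fit. SMAD6, the inhibitor of BMP signalling, was at 4.29, 3.10, 1.39 and 0.826 CPM in CTRL and at 4.93, 3.22, 4.32 and 1.01 CPM in miR-155OE. The SMAD6 log2 fold change of 0.50 (SE 0.53, adjusted p = 0.666 on group alone, 0.199 with the block) came mostly from pair 3, where it was 1.60, against 0.05 to 0.28 in the other pairs.

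Of the 6 targets, 2 fell and 2 rose with the block, against 5.17% and 7.43% of all tested genes. TGFBI (ENSG00000120708, chr5:136028895-136063818) was at 1166, 1077, 801 and 659 CPM in CTRL and at 941, 963, 543 and 589 CPM in miR-155OE. The groups overlapped widely, yet each miR-155OE library was below the CTRL library of its number. TGFBI had a log2 fold change of -0.29 (SE 0.23, adjusted p = 0.540) on group alone and fell by 0.30 (SE 0.08, adjusted p = 0.0366) with the block. PMEPA1, a membrane protein induced by TGF-beta that limits its signalling (ENSG00000124225, chr20:57648392-57711536), was at 147, 126, 142 and 130 CPM in CTRL and at 130, 112, 123 and 110 CPM in miR-155OE. The 4 pair differences were alike, from -0.24 to -0.17 on the log2 scale. On group alone the log2 fold change of PMEPA1 was -0.20 (SE 0.08, adjusted p = 0.191), and with the block it fell by 0.20 (SE 0.05, adjusted p = 0.0281).

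ID2, an inhibitor of basic helix-loop-helix factors like ID1 (ENSG00000115738, chr2:8678845-8684453), was at 39.4, 36.9, 30.6 and 21.8 CPM in CTRL and at 57.1, 38.8, 61.0 and 38.3 CPM in miR-155OE. Libraries 1 and 3 of miR-155OE lay above all CTRL libraries and libraries 2 and 4 near the upper end of the CTRL range. ID2 had a log2 fold change of 0.60 (SE 0.20, adjusted p = 0.136) on group alone and rose by 0.61 (SE 0.13, adjusted p = 0.0167) with the block. The other 2 genes of the same family had no call. ID1 ranged from 654 to 680 CPM over the CTRL libraries and from 594 to 689 CPM over miR-155OE, a log2 fold change of -0.06 (SE 0.07, adjusted p = 0.731). ID3 stood at -0.08 (SE 0.33), and its sign turned when single libraries were left out, from -0.30 to 0.15. CDKN2B (ENSG00000147883, chr9:22002903-22009363) was at 190, 191, 187 and 233 CPM in CTRL and at 259, 209, 262 and 264 CPM in miR-155OE. CTRL library 4 was the highest of its group and miR-155OE library 2 the lowest of its own, and these were the only values to overlap. CDKN2B had a log2 fold change of 0.31 (SE 0.10, adjusted p = 0.118) on group alone and rose by 0.31 (SE 0.07, adjusted p = 0.0238) with the block. Leaving out number 1 or number 4 ended the calls of TGFBI, PMEPA1, ID2 and CDKN2B, and leaving out number 3 ended those of TGFBI, PMEPA1 and CDKN2B, with adjusted p up to 0.167.

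The differences within the pair of number 2 were the smallest. The median absolute log2 difference between the libraries of a pair, over the 36 members, was 0.19 for number 1, 0.13 for number 2, 0.30 for number 3 and 0.25 for number 4. Over all tested genes it was 0.19, 0.16, 0.24 and 0.17, so number 2 was also the smallest there. For THBS1 the pair differences were -0.96, -0.28, -1.34 and -1.24, for TGFB2 -1.29, -0.44, -1.07 and -1.15, and for BAMBI 0.99, -0.02, 1.10 and 0.45. Without miR-155OE library 2 the fit on group alone called 4 members lower (TGFB2, FSTL3, THBS1 and TGFBR1, against 3.39% of the 15475 genes then tested) and 4 higher (LTBP4, BMP2, BAMBI and CDKN2B, against 4.85%). Leaving out any other single library gave 0 members lower and at most 1 higher. The calls without library 2 come from the same libraries as the blocked calls and are not separate evidence for them. In the blocked fit, 4 of the 13 calls (TGFB2, THBS1, FSTL3 and LTBP4) held without each number in turn. The other 9 were lost without number 1 and without number 4, 5 of them also without number 3, and 0 were lost without number 2.

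**Figure D4:**
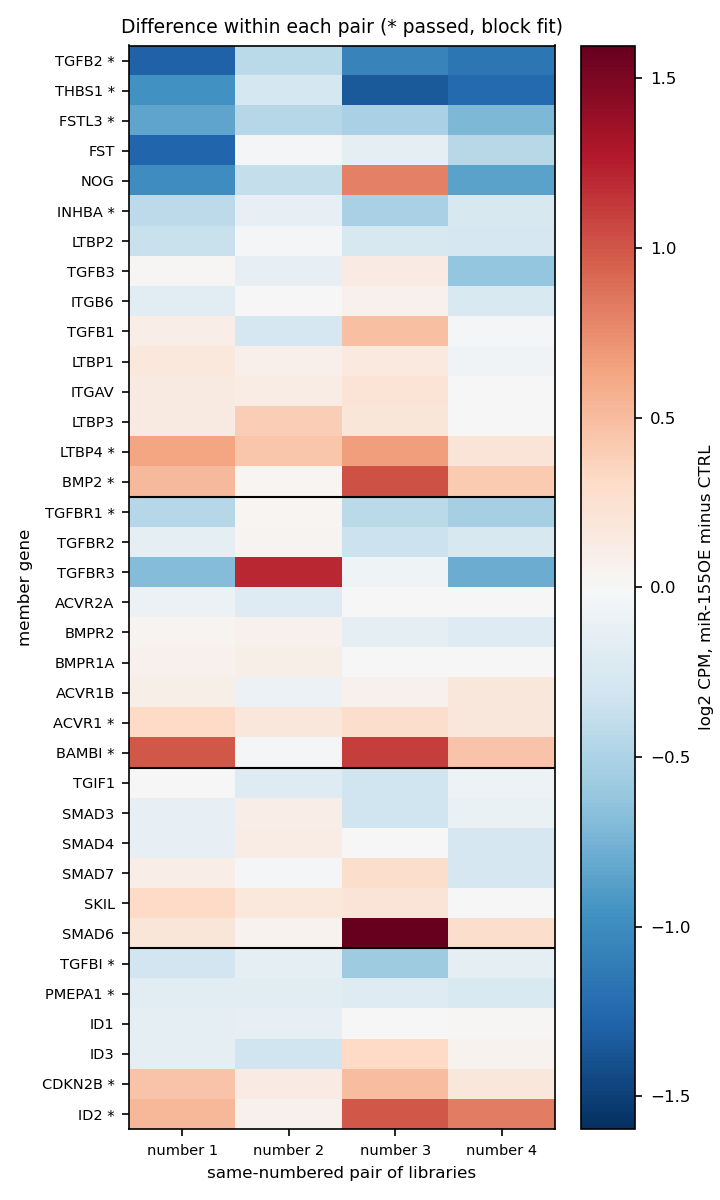
Heat map of the log2 CPM difference, miR-155OE minus CTRL, within each numbered pair (columns) for the 36 tested members (rows, by role, with a star where the blocked fit passed); blue is lower and red is higher in miR-155OE. The column of number 2 is pale for many starred genes, among them THBS1 (-0.28), BAMBI (-0.02) and BMP2 (0.04).

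Several members differed on average between libraries 1 and 2 and libraries 3 and 4 in both groups. ID3 was at 106, 115, 58.8 and 41.3 CPM in CTRL and at 95.1, 92.5, 73.2 and 42.9 CPM in miR-155OE. The mean of numbers 1 and 2 exceeded that of 3 and 4 by 1.16 on the log2 scale in CTRL and by 0.74 in miR-155OE. The same difference was 1.72 and 0.90 for SMAD6, 0.62 and 0.75 for TGFBI, 0.52 and 0.49 for FSTL3, and -0.68 and -1.03 for FST. For SMAD6 in miR-155OE, however, library 3 (4.32 CPM) lay above library 2 (3.22 CPM), and library 4 was lowest (1.01 CPM). In this difference ID3 and SMAD6 thus had the sign of TGFBI and the opposite sign to FST in both groups. The pattern was not shared by the ID genes as a family. ID1 stood at -0.04 in CTRL and -0.18 in miR-155OE, and ID2 at 0.56 and -0.04. ID3, SMAD6, TGFBI, FSTL3 and FST were singled out after their values had been seen. What the numbers share is not given in the sources used here. The pairing of numbers 3 and 4 was not clear-cut. Over the 10267 genes checked, the deviations of miR-155OE library 3 correlated at 0.399 with those of CTRL library 4, against 0.184 with its own partner, and those of CTRL library 3 at 0.203 with miR-155OE library 4.

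**Figure D5:**
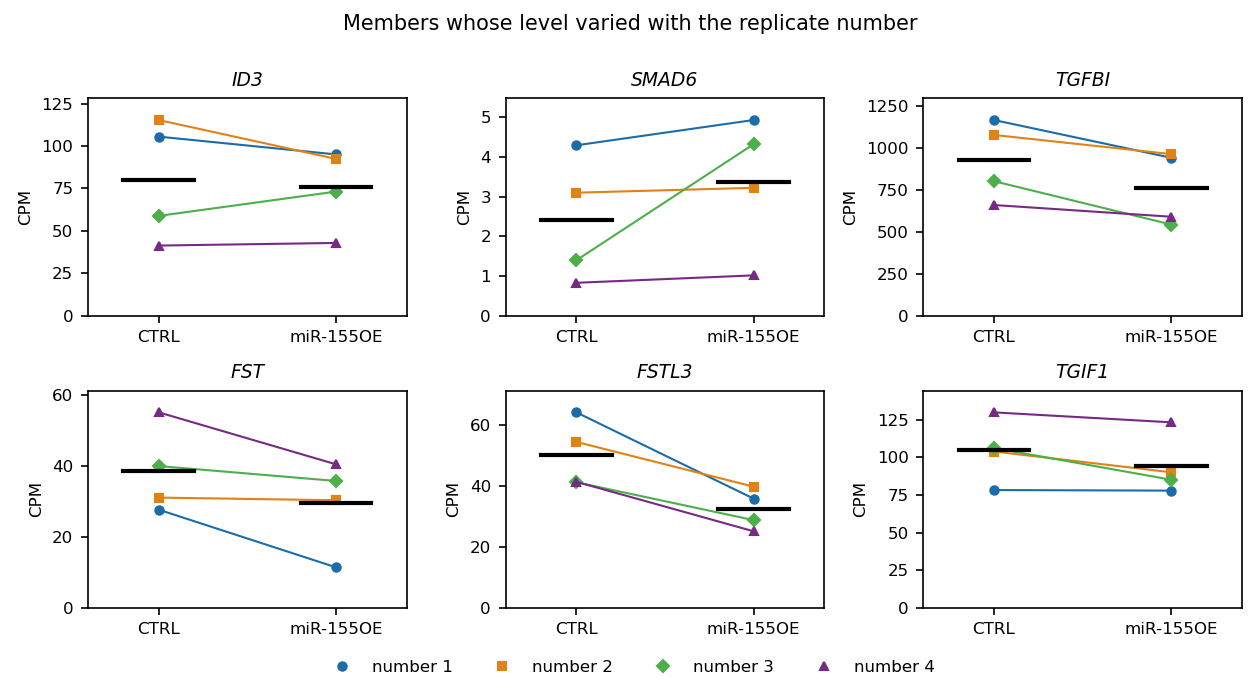
CPM of 6 members whose level varied with the replicate number, with points joined by number and black bars for group means. The genes were picked after their values had been seen. ID3, SMAD6, TGFBI and FSTL3 are higher in CTRL libraries 1 and 2 than in 3 and 4, and FST is lower there.

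Seed sites and calls did not line up one way. Of the 13 members with a site, 3 fell (TGFB2, THBS1 and TGFBR1), 2 rose (ACVR1 and CDKN2B) and 8 passed in neither direction with the block. Of the 23 tested members without one, 4 fell, 4 rose and 15 passed in neither. Over all tested genes, with or without a site, 5.17% fell and 7.43% rose with the block. The median log2 fold change on group alone was -0.07 for members with a site and -0.07 for those without, against -0.01 and 0.00 over all tested genes with a UTR. Of the 13 members with a site, 7 were on the lower side, against 1128 of the 2199 tested genes with a site. A match describes the letters of the UTR and not a contact with the microRNA.

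RefSeq promoter windows on GRCh38.p14, from 250 bases before to 50 after a start, were found for 35 of the 37 members, as 69 windows. The SMAD palindrome GTCTAGAC was in 0.202% of all 35116 windows and in 1 member window, that of SMAD6. The GC-rich site GGCGCC was in 15 of 69 member windows (21.7%), against 19.2% of all windows. The short half-site CAGAC, which can overlap others, was in 56.5% of member windows and 45.3% of all windows. Both strands were searched. Windows are shown for BAMBI, the member with the largest rise, at chr10:28677271-28677570, and for FSTL3, the member with the lowest adjusted p, at chr19:676142-676441, both on the plus strand, with GGCGCC in capitals.
BAMBI: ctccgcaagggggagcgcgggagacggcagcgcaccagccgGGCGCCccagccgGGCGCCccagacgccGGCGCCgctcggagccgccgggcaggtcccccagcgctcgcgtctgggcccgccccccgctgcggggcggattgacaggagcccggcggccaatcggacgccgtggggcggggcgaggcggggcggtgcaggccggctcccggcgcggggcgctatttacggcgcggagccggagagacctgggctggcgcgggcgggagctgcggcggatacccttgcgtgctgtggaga
FSTL3: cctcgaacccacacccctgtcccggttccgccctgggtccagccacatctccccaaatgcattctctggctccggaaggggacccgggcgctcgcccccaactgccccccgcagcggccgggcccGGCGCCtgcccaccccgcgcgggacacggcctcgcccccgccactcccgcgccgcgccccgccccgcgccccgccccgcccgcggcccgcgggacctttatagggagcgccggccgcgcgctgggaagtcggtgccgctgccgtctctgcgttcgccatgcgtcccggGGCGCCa

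BAMBI holds GGCGCC 3 times and CAGAC 2 times in this window, and FSTL3 holds GGCGCC 2 times and CAGAC 0 times. GGCGCC is also in a window of each of TGFBR1, ACVR1, LTBP4, PMEPA1 and TGFBI. All of these but TGFBI have further windows without it. The windows of TGFB2, THBS1, INHBA, ID2 and CDKN2B do not hold it. Presence and absence of the site thus both occur among members that rose and among members that fell.

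Other genes of the pathway gave a frame for these values. Of 97 further ligands, regulators and targets, 68 were tested. On group alone 2 fell (2.94%, against 1.05% of all tested genes) and 2 rose (2.94%, against 2.17%). With the block 11 fell (16.2%, against 5.17%) and 9 rose (13.2%, against 7.43%). INHBB, the subunit of activin B, went from a CTRL mean of 1.16 ± 0.124 CPM to 4.52 ± 1.90 CPM (SD, n = 4 each) and rose by 1.96 on the log2 scale (SE 0.30, adjusted p = 0.00984), opposite in direction to the blocked INHBA value. BMP6, a BMP ligand like BMP2, rose by 1.13 (SE 0.25, adjusted p = 0.0386), from 6.59 ± 1.25 to 14.5 ± 5.23 CPM. TWSG1, a BMP-binding protein, fell by 0.31 (SE 0.07, adjusted p = 0.0462), from 43.0 ± 1.48 to 34.7 ± 2.75 CPM. INHBB kept its call without each of the 8 libraries. BMP6 lost it without 6 of them and TWSG1 without 7, with adjusted p up to 0.132.

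With the block alone, the target CTGF fell by 1.00 (SE 0.16, adjusted p = 0.00541), the integrin gene ITGB8 by 0.60 (SE 0.10, adjusted p = 0.00782), the collagen gene COL4A1 by 0.59 (SE 0.11, adjusted p = 0.00840) and the ligand GDF15 by 0.34 (SE 0.05, adjusted p = 0.00480). Without number 1 the calls of ITGB8 and COL4A1 ended, at adjusted p = 0.0504 and 0.0630. HEY1, a BMP and Notch target, rose by 1.28 (SE 0.16, adjusted p = 0.00242). HEY1 lies on the long arm of chromosome 8, where 84.9% of 351 tested genes were on the higher side and the median log2 fold change was 0.29, and the part of that shift in the HEY1 value was not tested. No member lies on that chromosome.

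No source used here says whether the counting used strand, and reads of a member and of a gene on the opposite strand cannot be told apart. Of the 13 members called with the block, 4 overlap another tested gene. For PMEPA1 that gene is NKILA, which fell by 0.82 (adjusted p = 0.0385) with the block at 1.37 CPM in CTRL. CDKN2B overlaps CDKN2B-AS1 at 0.143 CPM, ID2 overlaps ID2-AS1 at 0.540 CPM, and THBS1 overlaps FSIP1 at 1.20 CPM and AC037198.2 at 0.239 CPM in CTRL, and none of these was called. All of these partners stood far below the members they overlap.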

How the data were processed

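RNA-seq was measured in 8 libraries, 4 CTRL and 4 miR-155OE. Per the submitters' processing notes the tools were HISAT2 2.0.5, featureCounts 1.5.0-p3 and DESeq2, with the build GRCh38. Their options, the strand setting and the annotation release are not given in the sources used here. The deposited raw counts are whole reads per gene, per the file headers. A second deposited table holds the authors' normalised signal per library, which was not used here beyond its group means, the authors' log2 fold changes and the authors' p-values, raw and adjusted. That table was used only for its calls.

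Counts were fitted in R 4.3.3 with edgeR 4.0.16 (filterByExpr, TMM factors, quasi-likelihood F test on group alone, Benjamini-Hochberg adjustment over all 15135 tested genes, threshold 0.05). CPM uses TMM-scaled totals of the tested genes, and pair differences use a prior count of 2. Each SE was derived from the log2 fold change and its F statistic. DESeq2 1.42.0 and limma 3.58.1 (voom) were alternatives, beside other scalings, filters and left-out libraries. Two-sided tests were used throughout. Sequences and figures used matplotlib 3.10.9, pandas 2.3.3 and numpy 2.4.6 in Python 3.11.15. Gene spans matched GENCODE release 29.

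The numbers were taken to pair the libraries because the deviations of same-numbered libraries from their group means correlated at more than 0.1 for every number (0.578, 0.497, 0.184 and 0.607 over 10267 genes, which are not independent replicates). The pairing of number 3 was weak: miR-155OE 3 correlated more with CTRL 4, at 0.399, and CTRL 3 more with miR-155OE 4, at 0.203. The block is printed where it changes a call or a count. The scripts were tested on simulated data, in which the blocked fit made more false calls than its nominal rate. Of its 163 calls 20 were false, against 0 of 82 on group alone.

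The members and lists were chosen with earlier results of these data known, so no count of members is independent evidence. Members past the threshold in either fit are given in full, then those with a log2 fold change of at least 0.5 in size, the extremes of level per role, every member with a seed site, and other pathway genes past the threshold on group alone with the 5 lowest p among those past it only with the block. Of these other pathway genes, 1 is counted but not reported here. Between libraries of a group, chi-square over its degrees of freedom was 15.7 to 83.0, so none repeated another within sampling noise. Mitochondrial genes took 1.01 to 2.92% of the reads.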

Additional observations from a re-analysis of the deposited data

Results flagged for a closer look

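In 3 of the 72 groups of 4 libraries checked, 1 library stood apart from the rest of its group by Dixon's criterion, which chance meets in about 1 in 20 groups. CDKN2B was at 233 CPM in CTRL library 4, against 187 to 191 CPM in the other CTRL libraries. It was at 209 CPM in miR-155OE library 2, against 259 to 264 CPM in the others of that group. LTBP3, a latent TGF-beta binding protein, was at 11.9 CPM in miR-155OE library 2, against 9.03 to 9.47 CPM.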

How the results depend on the processing

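With DESeq2 size factors or upper-quartile factors in place of TMM, every member kept its direction and its side of the threshold. DESeq2 called 3 members lower and 5 higher, 4 and 6 other pathway genes, and 447 and 776 of all genes. Without a filter on low counts the numbers were 3 and 4, 5 and 4, and 308 and 619. A filter of 10 CPM in 4 libraries left 0 other pathway genes higher, since INHBB and BMP6 were not tested under it, and 70 and 173 of all genes. The replicate block gave 7 and 6 members, 11 and 9 other pathway genes, and 783 and 1125 of all genes, and among the members and the other genes named it changed no call beyond those given with it above. DESeq2 with the block called 7 and 5 members, limma-voom with the block 7 and 6. Leaving out 1 library at a time, 0 to 4 members were lower and 0 to 4 higher, 0 to 9 other pathway genes lower and 1 to 5 higher, and 25 to 524 of all genes lower and 98 to 750 higher, with the upper ends without miR-155OE library 2. Leaving out 1 number with the block, 3 to 9 members were lower and 1 to 6 higher. For these other blocked fits the calls over all genes were not counted. No background share therefore stands beside their member counts. Signs turned for members near 0: on group alone ID3 ranged from -0.30 to 0.15, TGFBR3 from -0.39 to 0.033 and SMAD7 from -0.094 to 0.20. With the block TGFBR3 ranged from -0.52 to 0.14, ID3 from -0.14 to 0.072, TGFB1 from -0.061 to 0.19, SMAD7 from -0.063 to 0.12 and TGFB3 from -0.29 to 0.0092. The median of the members stayed between -0.08 and -0.03. Where a count moved, the cause was not tested. For TGFB3, TGFBR3 and NOG, all near or under 1 CPM, the SE was 0.30 to 0.50 on group alone. Differences of that size were thus not detectable in these libraries. The parts of depth and of spread between libraries in these SEs were not tested.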
